A study of Mus musculus with 9 samples.

Results

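Fibroblasts (ADSF) and macrophages (ADSM) grown from the arthritic ankles of mice were compared gene by gene, in 3 RNA-seq libraries of each. These 6 libraries are the ADSF and ADSM samples of a series of 9, chosen by their deposited cell type label, and the other 3 are fibroblasts of normal ankles (NDSF). Both groups came from C57BL/6 mice, given as female in the study's methods, with collagen antibody-induced arthritis (CAIA), in which antibodies to type II collagen and then lipopolysaccharide are injected. ADSF are the ankle cells that stuck to a collagen-coated dish. ADSM are cells that did not, grown for longer on an uncoated dish beside remaining fibroblasts, which were then taken off with trypsin. Both were at passage 1. Neither culture was sorted, the time in culture differed between the groups, and the cells came from independent ankles by the study's account, though which library came from which ankle or animal is not given, so each p-value speaks to the spread among these 6 libraries and the 3 of NDSF. ADSF and ADSM libraries were made with the same stranded TruSeq kit and sequenced as paired reads on a MiSeq. The NDSF libraries, which enter the filter and the shared spread, were made with another kit (NEBNext Ultra II Directional). The comparison asks which transcripts differ between fibroblasts and macrophages of inflamed joints, over all genes and beyond the usual marker genes.

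Fibroblasts of the joint lining are mesenchymal cells that build and digest matrix, hold fast to it through integrin adhesions and keep the positional gene programme of the limb they grew in. Macrophages belong to the blood lineage, where the transcription factor PU.1 opens the myeloid programme and growth depends on the receptor for CSF1. Many proteins of the cytoskeleton and of signalling exist as close copies encoded by different genes (paralogs), of which one is used in blood cells and the other in most other tissues.

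The ADSF libraries held 2580998 to 3220692 reads in genes and the ADSM libraries 2380483 to 3073890. On the log2 scale, replicates correlated across genes at 0.971 to 0.974 within ADSF and 0.985 to 0.990 within ADSM, and an ADSF with an ADSM library at 0.437 to 0.493. The summed level of 14 macrophage markers was 957 to 1773 in ADSF and 42337 to 45190.2 in ADSM, so ADSF carried 2.19 to 4.05% of the ADSM mean, with the lowest value in library 1 and the highest in library 3. The 14 fibroblast markers summed to 101025 to 117857 in ADSF and to 70.0 to 149.5 in ADSM, or 0.0635 to 0.136% of the ADSF mean. The labels fit the main markers, but some genes typical of tissue macrophages were at or near 0 in ADSM. There, the class II gene H2-Ab1 had no read, Mertk, which engulfs dying cells, averaged 2.13 and Aif1 was too low to test, and the scavenger receptor Cd163 had no read in either group. The groups also differed in sex-linked transcripts. Xist, the RNA that coats the inactive X chromosome of female cells, had 2833, 2721 and 2891 in ADSF, against 3.42, 0 and 2.8 in ADSM. The Y-linked genes Eif2s3y and Ddx3y had no read in ADSF, against 139, 159 and 152 and 94.8, 143 and 113 in ADSM, and Kdm5d and Uty showed the same division. These Y-linked reads go against ADSM libraries made from females only. A difference in sex or source of the cells and the difference in cell type cannot be told apart in any comparison that follows. In bulk RNA, fewer cells of a kind and less RNA per cell cannot be told apart either.

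More than 7 in 10 of the tested genes were called different between the groups. Of 11889 genes tested (those with a TMM-normalized value of 10 or more in any 3 of the 9 libraries), 4874 were higher in ADSF (41.0% of those tested) and 3577 were lower (30.1%), together 71.1%, with limma and a Benjamini-Hochberg adjusted p below 0.05. TMM-normalized values are read counts divided by a factor for each library, and the fold changes are on the scale of log2(value + 1), which understates the change of low genes. The fitted fold change of a gene with few or no reads in 1 group depends on that added 1 and is no bound. Values after ± are SDs over n = 3 libraries. The split depended on the scaling. Relative to these values, upper-quartile scaling moved the median log2 fold change of all genes by -0.14 and scaling by the library total moved it by -0.33. With the library total, 3971 genes were higher and 4945 lower, so that 44.5% of the calls were higher in place of 57.7%. With the filter and fit on the ADSF and ADSM libraries alone, 4523 genes were higher and 3749 lower, so that 54.7% of the calls were higher. There 1475 genes were over 16-fold higher and 307 lower. Large differences lay mostly on the fibroblast side, with the library total too, at 1407 genes over 16-fold higher and 355 lower. 1498 genes were over 16-fold higher in ADSF (12.6% of those tested) and 307 over 16-fold lower (2.58%), and at a log2 fold change beyond 8 there were 241 and 12. Adding 5 in place of 1 before the log left 761 and 183 genes beyond 16-fold. The median log2 fold change of the higher genes was 2.04 and that of the lower genes -1.01. Genes over 16-fold higher made up 29.9 to 31.4% of the reads of an ADSF library, while those over 16-fold lower made up 6.48 to 6.83% of the reads of an ADSM library.

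**Figure D1:**
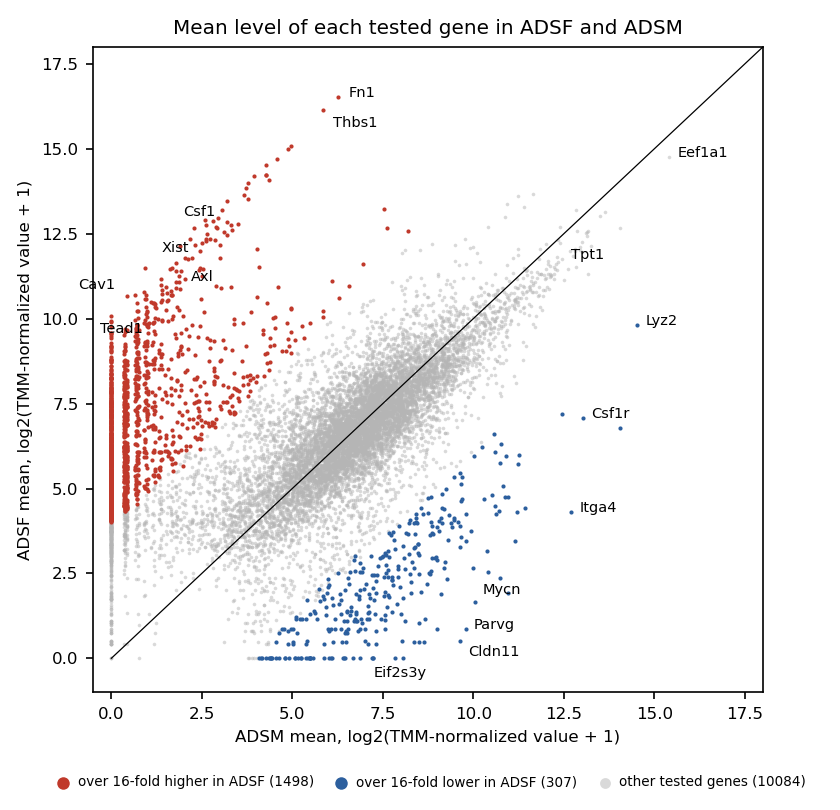
Each point is a tested gene, with its mean TMM-normalized value in ADSF on the vertical axis and in ADSM on the horizontal axis, both as log2(value + 1), and the line marks equal means. The 1498 genes over 16-fold higher in ADSF (red) crowd towards 0 in ADSM, while the 307 genes over 16-fold lower (blue) spread along the ADSM axis.

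Presence in one group and absence from the other was also uneven. 678 genes had a value of at least 10 in every ADSF library and no read in ADSM, and 45 genes the opposite. Folds of such genes are lower bounds, set against 3 reads over the 3 libraries of the group without reads. Highest among those of ADSF was Loxl1, which cross-links elastin, at 1089.8, 1136 and 1012 and at least 1146-fold higher in ADSF. Fgfr1, a receptor for fibroblast growth factors, had 735, 833 and 731 in ADSF and was at least 813-fold higher, and Pdgfra, a receptor for platelet-derived growth factor, was at least 788-fold higher. Among genes seen in ADSM alone, Slc6a13, a transporter for the amino acid GABA, had 308, 209.7 and 273 in ADSM and was at least 230-fold lower in ADSF. Pax6, a transcription factor best known from the eye and brain, had no read in ADSF, against 70.0, 59.2 and 60.8 in ADSM, so it was at least 55.2-fold lower. Slc6a13 and Pax6 were picked after seeing their values. Macrophage markers in ADSF were 2.19 to 4.05% of the ADSM mean, and fibroblast markers in ADSM 0.0635 to 0.136% of the ADSF mean. The part of these remainders in the uneven counts, and in those beyond 16-fold, was not tested.

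Among genes at high levels, the largest differences towards ADSF included several genes of the matrix. Hspg2, the heparan sulfate proteoglycan perlecan (chromosome 4, 137468803 to 137570630 of mm10), had 6042, 6739 and 6584 in ADSF, against 5.98, 1.04 and 4.67 in ADSM (log2 fold change of 10.54 with a standard error of 0.363 and an adjusted p of 8.66e-10 in limma). Fbn1, the microfibril protein fibrillin 1, had 9908, 10678 and 13523 in ADSF, against 5.13, 7.27 and 12.2 in ADSM. Serpinh1, the chaperone of collagen, had 7317, 8254 and 7602 in ADSF, against 4.27, 6.23 and 4.67 in ADSM. The 12 genes ranked first on this side further held Cyr61, Thbs1, Thbs2, Col3a1, Col5a2, Fn1, Svep1, Acta2 and the collagen receptor Ddr2, with log2 fold changes of 10.23 to 10.67. On the other side, Cldn11, a claudin of tight junctions (chromosome 3, 31149920 to 31164326), had 0, 1.24 and 0 in ADSF, against 920, 677 and 784 in ADSM, a ratio of 1913 with a counting interval of 343 to 75584 in favour of ADSM. The neural MYC relative Mycn had 3.97, 2.49 and 0 in ADSF, against 1112, 927 and 1119 in ADSM (log2 fold change of -8.66 with a standard error of 0.52 and an adjusted p of 6.83e-08 in limma). The integrin chain Itga4 had 9.93, 26.1 and 20.4 in ADSF, against 5729.5, 7997 and 6385 in ADSM (log2 fold change of -8.49 with a standard error of 0.441 and an adjusted p of 2.11e-08 in limma). Sema4a, a semaphorin of immune cells, had 0, 2.49 and 0 in ADSF, against 548, 531 and 449.6 in ADSM. Lyz1, a lysozyme that shares much of its sequence with Lyz2, had 73.4, 111 and 141 in ADSF, against 16364, 16820.5 and 18180.3 in ADSM, and since near copies can share reads its exact level is uncertain. These genes were chosen among those without overlap between the 2 groups of libraries, so its absence here is no result. Of all called genes, 61 of the 4874 higher and 49 of the 3577 lower had overlapping libraries. Per length and depth, by the deposited FPKM values, the 8 most abundant genes over 16-fold higher in ADSF were Thbs1, Sparc, Fn1, Bgn, Col1a1, Acta2, Col1a2 and Timp1, at 2184 to 4445 FPKM in ADSF and 1.78 to 3.57 in ADSM. The 8 over 16-fold lower were Lyz2, Lyz1, Tyrobp, Fxyd2, Csf1r, Fcer1g, Cd52 and Lcp1, at 1.74 to 341 FPKM in ADSF and 527 to 8663 in ADSM.

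Tested transcription factors of mesenchyme and limb were higher in ADSF almost without exception. Of 54 such genes, 47 were high enough to test and 46 were higher in ADSF (41.0% of all tested genes were). The median log2 fold change of the 47 was 4.83 (4.90 with genes lacking reads in 1 group set at their bound) against 0.14 over all tested genes. No read in ADSM was found for 29 of the 54, and 23 of the 47 tested had reads in ADSF or ADSM alone. Genes without reads in ADSM passed the filter only through fibroblast libraries and could hardly be called lower. Tead1, a DNA-binding partner of the growth regulator YAP (chromosome 7, 112679320 to 112906805), had 991, 1282 and 1096 in ADSF, against 0, 0 and 2.8 in ADSM, a ratio of 1201 with a counting interval of 411 to 5829 that covers counting error alone. Prrx1, a homeobox factor of limb mesenchyme, had 727, 601 and 536 in ADSF, against 0.854, 0 and 1.87 in ADSM. Its relative Prrx2 had 368, 339 and 401 in ADSF, against 0, 0 and 0.935 in ADSM. Every ADSF library stood far above every ADSM library for these genes, and only 61 of all 4874 genes called higher had overlapping libraries. Zeb1, a repressor of epithelial genes, had 376, 356 and 345 in ADSF, against 0, 0 and 1.87 in ADSM, while its paralog Zeb2 did not pass, at 291, 342 and 310.1 in ADSF, against 265, 360.2 and 323 in ADSM (log2 fold change 0.00, 95% interval -0.34 to 0.34). Hindlimb factors were among them. Tbx4, which marks the hindlimb, had 119, 92.1 and 67.3 in ADSF and was at least 98.5-fold higher, and Pitx1, which specifies it, had 10.9, 21.2 and 32.5 and was at least 22.8-fold higher. Tcf4 was the 1 tested member that did not pass, at 304 ± 42.8 in ADSF against 289.7 ± 23 in ADSM.

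Factors of the myeloid lineage were divided. Of 26 genes, 23 were tested, 11 were lower in ADSF (30.1% of all tested genes were), 4 were higher (41.0% of all) and 8 did not pass, with a median log2 fold change of -0.67. Sfpi1, which encodes PU.1 (chromosome 2, 91096797 to 91115756), had 3.97, 31.1 and 9.62 in ADSF, against 643, 497 and 557 in ADSM (log2 fold change of -5.56 with a standard error of 0.527 and an adjusted p of 2.97e-06 in limma). ADSF library 2 held the most of the 3, and all stayed far below ADSM. Lyl1, a factor of early blood cells, had 0.993, 0 and 2.4 in ADSF, against 278, 294 and 262 in ADSM. Ikzf1, the Ikaros factor of blood cells, had 3.97, 3.73 and 8.41 in ADSF, against 355, 311 and 322 in ADSM. Irf8, which directs monocyte fate, averaged 2.69 ± 0.83 in ADSF against 108 ± 29.7 in ADSM and Irf5, a factor of inflammatory cytokine genes, 40.3 ± 7.85 in ADSF against 411 ± 22.6 in ADSM. The 4 that ran the other way were Maf, Pparg, Klf4 and Runx1. Maf, a factor of several resident macrophages and of other tissues, had 149, 85.9 and 111 in ADSF, against 0, 1.04 and 0 in ADSM (a ratio of 333 with a counting interval of 59.3 to 13184, limma adjusted p of 1.26e-08). Pparg, a nuclear receptor of fat cells and some macrophages, had 120.1, 49.8 and 75.7 in ADSF and no read in ADSM, and was at least 86.9-fold higher. Cebpa, Cebpb and Nr1h3 were among those that did not pass, with log2 fold changes of -0.38 to 0.22.

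**Figure D2:**
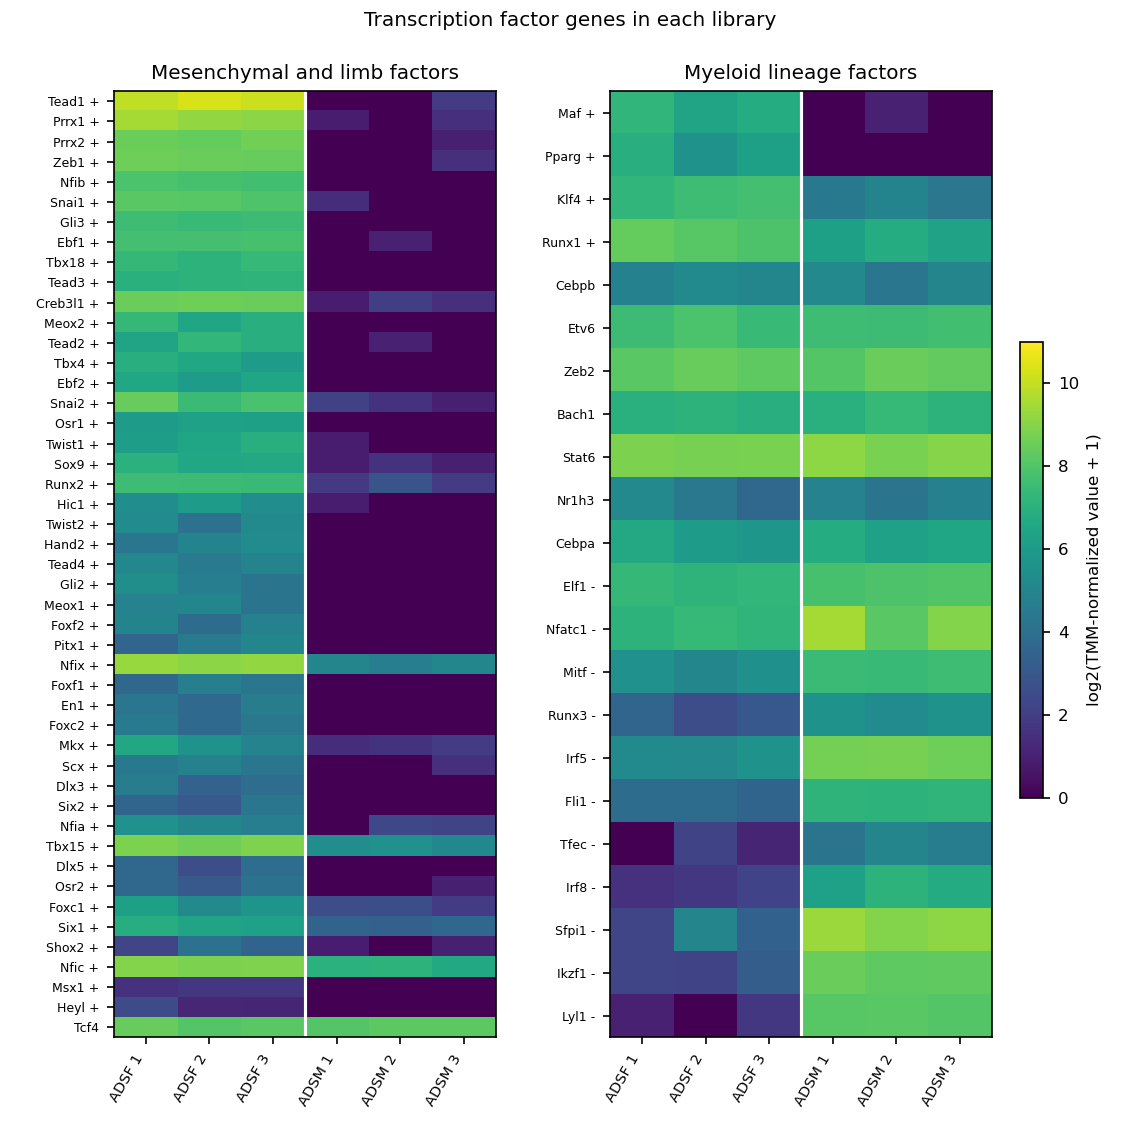
Rows are tested transcription factor genes of the mesenchymal and limb list (left panel) and the myeloid list (right panel), columns are the ADSF and then the ADSM libraries, and colour gives log2(TMM-normalized value + 1). A plus or minus after a name marks a gene called higher or lower in ADSF, and the left panel is near 0 in ADSM for most rows, while the right panel holds 7 rows without a call.

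The promoters of the genes set apart were then searched for short motifs in 300 bases of RefSeq sequence (GRCm38.p6, 250 before and 50 after each annotated start, both strands). The letters GAGGAAGT, a core that PU.1 binds, lay in 36 of 316 promoters of genes over 16-fold lower in ADSF (11.4%), in 40 of 1477 of genes over 16-fold higher (2.71%) and in 3.08% of the promoters of all tested genes. The letters ACATTCC, a core of TEAD factors, were in 1.27%, 4.74% and 2.75% of the same sets. TGANTCA, bound by AP-1, was in 7.28%, 7.65% and 5.12%, the paired GAAA motif of the interferon regulatory factors in 2.85%, 3.05% and 2.94%, CCAAT of NF-Y in 34.2%, 32.3% and 37.5%, and TATAAA of the TATA box in 10.4%, 9.75% and 7.1%. A gene can have several promoters, the motifs were not masked against each other, and 240 of the 307 and 1095 of the 1498 genes matched an entry. Over all 32851 promoters of the table the PU.1 letters were in 3.2% and the TEAD letters in 3.85%. These shares are a description of letters in these windows and carry no test.

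Promoters of 3 genes lower in ADSF and 3 higher are shown because they carry these letters and their genes return below. Capitals mark the motif, read on either strand, and each sequence runs 5′ to 3′ in the direction of its gene. Parvg encodes an adhesion protein of blood cells, Inpp5d a lipid phosphatase of blood cells and Vav1 an exchange factor for small GTPases, and the PU.1 letters begin at bases 252, 231 and 240 of their windows.
Parvg promoter, chr15:84324470-84324769, + strand: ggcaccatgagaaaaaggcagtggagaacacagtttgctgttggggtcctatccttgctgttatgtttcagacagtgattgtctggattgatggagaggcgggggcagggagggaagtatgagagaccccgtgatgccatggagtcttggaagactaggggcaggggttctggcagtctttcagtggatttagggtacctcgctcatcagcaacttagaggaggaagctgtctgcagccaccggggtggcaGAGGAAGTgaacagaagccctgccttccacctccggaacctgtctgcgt
Inpp5d promoter, chr1:87620062-87620361, + strand: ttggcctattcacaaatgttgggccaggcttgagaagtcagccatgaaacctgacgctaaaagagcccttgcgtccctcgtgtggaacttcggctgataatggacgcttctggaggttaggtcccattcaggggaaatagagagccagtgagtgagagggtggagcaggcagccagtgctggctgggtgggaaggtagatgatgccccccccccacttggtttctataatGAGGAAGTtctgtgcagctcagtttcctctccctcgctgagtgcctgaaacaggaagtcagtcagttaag
Vav1 promoter, chr17:57278850-57279149, + strand: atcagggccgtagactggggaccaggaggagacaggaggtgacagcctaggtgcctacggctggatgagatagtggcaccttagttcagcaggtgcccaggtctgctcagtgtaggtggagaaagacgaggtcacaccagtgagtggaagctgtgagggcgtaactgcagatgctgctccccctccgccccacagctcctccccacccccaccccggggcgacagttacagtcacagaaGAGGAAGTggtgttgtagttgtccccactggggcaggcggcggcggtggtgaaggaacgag
Cyr61 encodes a secreted matrix protein, Amotl2 a junction protein that binds YAP, and Yap1 is YAP itself, and the TEAD letters begin at bases 147, 185 and 110.
Cyr61 promoter, chr3:145649936-145650235, - strand: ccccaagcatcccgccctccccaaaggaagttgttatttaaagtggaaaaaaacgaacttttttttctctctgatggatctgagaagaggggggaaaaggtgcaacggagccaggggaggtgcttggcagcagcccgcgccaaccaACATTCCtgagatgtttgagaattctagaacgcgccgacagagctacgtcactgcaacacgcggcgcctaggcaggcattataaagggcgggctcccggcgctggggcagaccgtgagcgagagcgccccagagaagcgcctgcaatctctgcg
Amotl2 promoter, chr9:102717554-102717853, + strand: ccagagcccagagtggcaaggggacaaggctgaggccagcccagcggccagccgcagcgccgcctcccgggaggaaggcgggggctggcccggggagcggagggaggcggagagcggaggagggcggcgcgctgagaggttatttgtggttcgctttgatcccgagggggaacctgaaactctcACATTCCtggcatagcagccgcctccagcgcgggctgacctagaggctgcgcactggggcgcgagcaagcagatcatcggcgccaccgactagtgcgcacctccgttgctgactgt
Yap1 promoter, chr9:8004547-8004846, - strand: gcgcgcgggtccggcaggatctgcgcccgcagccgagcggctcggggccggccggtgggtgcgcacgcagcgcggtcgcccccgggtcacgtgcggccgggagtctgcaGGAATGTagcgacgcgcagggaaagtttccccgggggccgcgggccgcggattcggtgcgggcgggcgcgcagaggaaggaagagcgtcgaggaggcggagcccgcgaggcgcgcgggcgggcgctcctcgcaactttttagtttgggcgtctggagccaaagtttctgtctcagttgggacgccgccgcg
On the expression side, Amotl2 had 1508, 1638 and 1476 in ADSF, against 0.854, 1.04 and 0.935 in ADSM. Yap1 had 496, 546 and 567 in ADSF, against no read in ADSM, and both were chosen after their values were seen.

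Paralogs of the cytoskeleton and of signalling were compared in pairs. In a list of 57 pairs, each of 1 gene known from blood cells and its relative used elsewhere, both genes were tested in 51 pairs. In 34 of these the blood cell paralog was lower and the other higher in ADSF, in 10 both were lower, in 2 both were higher and in 5 at least 1 gene did not pass. Of the genes, 49 of 53 tested blood cell paralogs were lower (30.1% of all genes) and 38 of 55 tested relatives higher (41.0% of all genes), with median log2 fold changes of -4.48 and 1.49. The list was put together with earlier results of these libraries known and is not independent evidence of its direction.

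The widest gap was between the parvins, which link integrins to actin. Parvg (chromosome 15, 84324720 to 84342978) had 0, 1.24 and 1.2 in ADSF, against 990.1, 791 and 868 in ADSM (a ratio of 1083 with a counting interval of 299 to 8945, limma adjusted p of 1.72e-09), whereas Parva (chromosome 7, 112427706 to 112591688) had 1134, 1246 and 1295 in ADSF, against 0, 4.15 and 3.74 in ADSM (log2 fold change of 8.72 with a standard error of 0.488 and an adjusted p of 3.97e-08 in limma). The kindlins activate integrins, and Fermt3 had 8.93, 17.4 and 15.6 in ADSF, against 856, 781 and 751 in ADSM. Fermt2 had 839.7, 1021 and 1055 in ADSF, against 0, 3.11 and 1.87 in ADSM. Among the integrin chains themselves, Itgb2 of white blood cells had 20.8, 74.7 and 50.5 in ADSF, against 589, 631 and 516 in ADSM. Itgb1, found on most cells, had 4485, 4737 and 4742 in ADSF, against 457, 458 and 474 in ADSM. No library of one group reached the range of the other in any of these 6 genes. The same held for all but 61 of the 4874 genes called higher and 49 of the 3577 called lower.

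Genes of branched actin assembly differed in size and direction. Both coronins were lower in ADSF, Coro1a at 19.3 ± 10.6 in ADSF against 1690 ± 53.6 in ADSM and Coro1c at 688 ± 99 in ADSF against 1033 ± 112 in ADSM. The call for Coro1c was lost in limma without ADSM library 1 (adjusted p of 0.0576) or ADSF library 3 (0.0618). The Arp2/3 subunit gene Arpc1b averaged 1161 ± 50.7 in ADSF against 2686 ± 371 in ADSM. Its relative Arpc1a averaged 253 ± 2.35 in ADSF against 164 ± 1.79 in ADSM (log2 fold change 0.63). Hcls1, the cortactin of blood cells, had 11.9, 33.6 and 28.8 in ADSF, against 1327, 1183 and 1266 in ADSM. Cttn, cortactin, had 1690.3, 1601 and 1716 in ADSF, against 1.71, 2.08 and 2.8 in ADSM. In the WAVE complex, which switches on the Arp2/3 complex, Nckap1l averaged 39.4 ± 11.9 in ADSF against 817 ± 81.8 in ADSM and Nckap1 702 ± 17.6 in ADSF against 4.3 ± 2.23 in ADSM. Cyfip1 of the same complex did not pass, at 604 ± 43.3 in ADSF against 691 ± 50.9 in ADSM, and its relative Cyfip2 was too low to test. Was, the Wiskott-Aldrich protein, averaged 3.77 ± 0.185 in ADSF against 312 ± 26.4 in ADSM and its relative Wasl 148 ± 11.7 in ADSF against 43.8 ± 5.57 in ADSM. Lcp1, the plastin of white blood cells, had 84.4, 203 and 147 in ADSF, against 5764, 5202 and 5819 in ADSM. Pls3, another plastin that bundles actin, had 1071, 846 and 796 in ADSF, against 162, 212 and 193 in ADSM. Which partner was the more abundant by TMM value changed between the groups for the cortactins, the Nckap1 pair, the Wiskott-Aldrich pair and the plastins. Of the small GTPases, Rac2 had 14.9, 46.1 and 16.8 in ADSF, against 2189, 1659.6 and 2082 in ADSM (log2 fold change -6.37) and Rac1 1129.7 ± 61.9 in ADSF against 792 ± 32.3 in ADSM (log2 fold change 0.51), and the call for Rac1 was lost when libraries were scaled by their total.

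**Figure D3:**
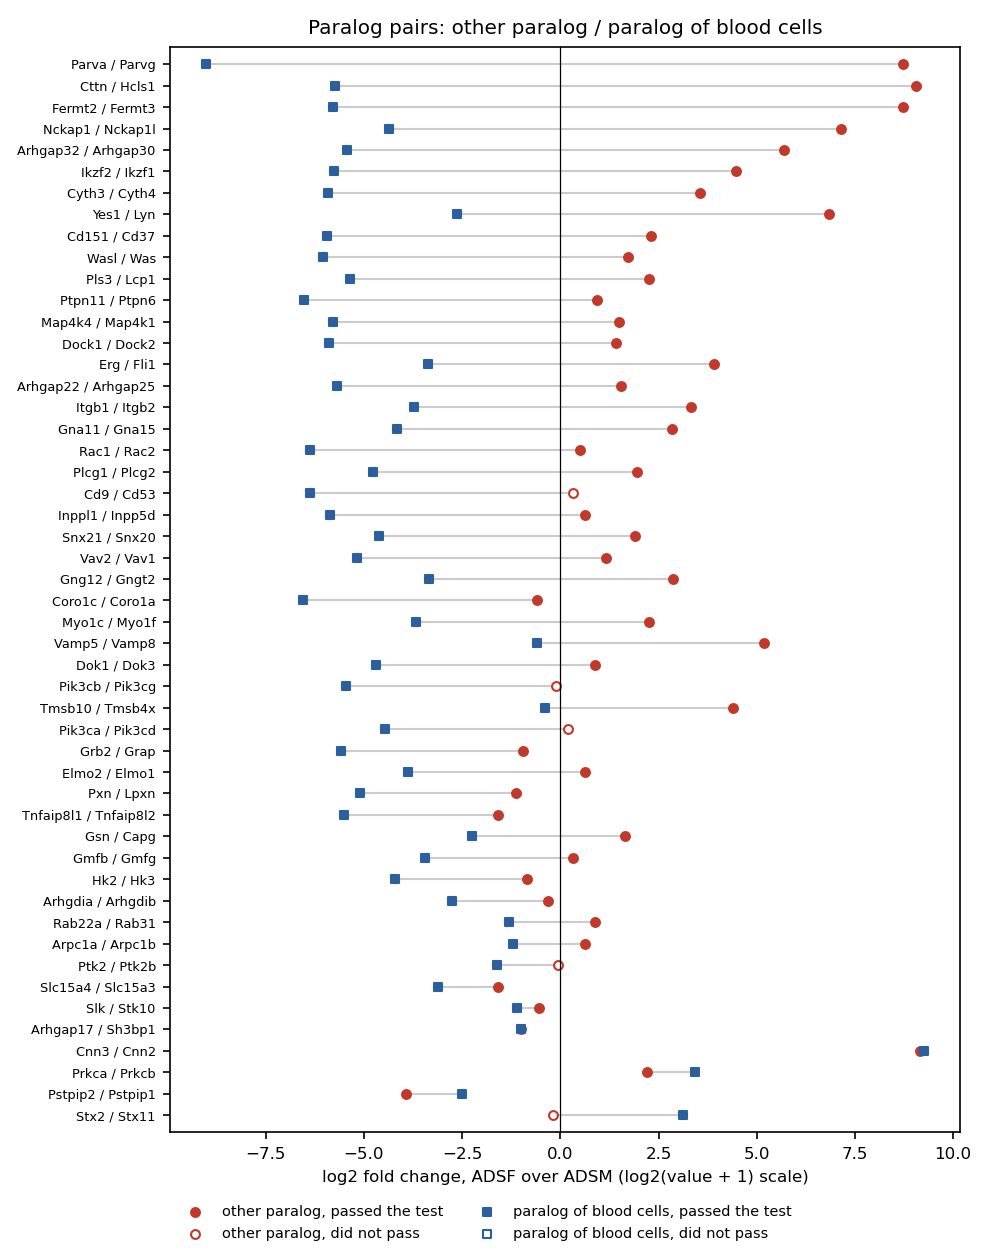
For 50 of the 51 pairs with both genes tested, the log2 fold change of ADSF over ADSM is given for the paralog of blood cells (squares) and for the other paralog (circles), with filled symbols for genes that passed the test. Most squares lie left of 0 and most circles right of it, with the widest gap for Parva and Parvg.

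Kinases and phosphatases behind receptors differed to unequal degrees. Of the Src family, Lyn averaged 66.3 ± 7.93 in ADSF against 415 ± 16.3 in ADSM. Src had 236, 259 and 246 in ADSF, against 1.71, 0 and 2.8 in ADSM. Yes1 had 115, 116 and 108 in ADSF and no read in ADSM. The phosphatase Ptpn6, which dampens blood cell receptors, had 11.9, 29.9 and 12 in ADSF, against 1682, 1516 and 1571 in ADSM. Its relative Ptpn11 averaged 856 ± 46.4 in ADSF against 449.6 ± 20.4 in ADSM (log2 fold change of 0.93 and an adjusted p of 1.23e-05 in limma). The lipid phosphatase Inpp5d averaged 13.7 ± 9.86 in ADSF against 678 ± 45.6 in ADSM. Inppl1 had 375, 437 and 383 in ADSF, against 240, 278 and 249 in ADSM. For the catalytic subunits of PI3 kinase, Pik3cg averaged 7.2 ± 1.12 in ADSF against 359 ± 39.8 in ADSM and Pik3cd 15 ± 6.4 in ADSF against 339 ± 10.7 in ADSM, whereas Pik3ca and Pik3cb did not pass, at 255 ± 4.33 in ADSF against 222 ± 18.7 in ADSM and 88.8 ± 4.1 in ADSF against 96.1 ± 9.54 in ADSM. The calponins Cnn2 and Cnn3 were both higher in ADSF, at 2315 ± 191 in ADSF against 3.12 ± 1.89 in ADSM and 1453 ± 68.8 in ADSF against 1.57 ± 0.583 in ADSM. Where promoters of these pairs were found, the PU.1 letters stood in 10 of 37 blood cell paralogs called lower, among them Parvg, Vav1, Inpp5d, Pik3cg, Cyth4, Cd53 and Cd37, and in 1 of 45 relatives. Over all tested genes with a promoter the share was 3.72%.

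Caveolae are small pits of the plasma membrane, built by caveolins and cavins. Of 13 tested caveola genes 12 were higher in ADSF (41.0% of all tested genes were) and 1 lower (30.1% of all), with a median log2 fold change of 5.10 (5.22 with genes lacking reads in 1 group set at their bound). Cav1, the main caveolin (chromosome 6, 17306335 to 17341328), had 1517, 1692 and 1763 in ADSF, against 1.71, 0 and 0 in ADSM, a ratio of 2909.9 with a counting interval of 805 to 24035. The cavin genes Ptrf, Sdpr and Prkcdbp averaged 1732 ± 225 in ADSF against 1.88 ± 0.184 in ADSM, 572 ± 106 in ADSF against 0.312 ± 0.54 in ADSM and 283 ± 15.5 in ADSF against 0.312 ± 0.54 in ADSM. The exception was Ehd4, a relative of the caveola neck protein Ehd2, at 147, 137 and 131 in ADSF, against 490.3, 432 and 508 in ADSM (log2 fold change of -1.78 and an adjusted p of 3.74e-07 in limma), where Ehd2 averaged 1048 ± 94.4 in ADSF against 21 ± 8.73 in ADSM (log2 fold change of 5.65 and an adjusted p of 3.94e-09 in limma).

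Cell junction genes were higher in ADSF in 18 of 26 tested cases (41.0% of all tested genes) and lower in 7, a share near the 30.1% of all tested genes. Gja1, which forms gap junctions, had 931, 1110.3 and 1179 in ADSF, against 4.27, 0 and 4.67 in ADSM. Cdh2, the neural cadherin, had 693, 615 and 626 in ADSF, against 1.71, 0 and 0 in ADSM. The tight junction scaffold Tjp1 had 648, 519 and 423 in ADSF, against 0.854, 0 and 0 in ADSM. Over the 3 ADSM libraries these genes had 10, 2 and 1 reads. The 7 lower genes included Cldn11, given above. The epithelial genes Cdh1, Ocln and Cgn had 2, 1 and 0 reads over the ADSF libraries, against 0, 0 and 1 over the ADSM libraries, and were too low to test.

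Genes of the primary cilium, the sensory antenna of many resting cells, were higher in 35 of 56 tested cases (41.0% of all tested genes) and lower in 4 (30.1%). With upper-quartile scaling 28 were higher and with the library total 26. They had a median log2 fold change of 0.76 that was 0.44 with the library total. The largest differences were in Smo, Evc2 and Evc, all tied to hedgehog signalling. Smo, the hedgehog signal transducer, had 484, 339.8 and 379.8 in ADSF, against 2.56, 0 and 0.935 in ADSM. Evc2 and Evc, which sit at the ciliary base, averaged 192 ± 27.5 in ADSF against no read in ADSM and 146 ± 25.2 in ADSF against 0.346 ± 0.599 in ADSM. The polycystin channel gene Pkd2 averaged 954 ± 116 in ADSF against 65.2 ± 4.06 in ADSM (log2 fold change of 3.85 and an adjusted p of 4.02e-10 in limma). Of the genes of intraflagellar transport, Ift57 (42.8 ± 1.01 in ADSF against 42.4 ± 4.66 in ADSM) and Ift46 (110.3 ± 25 in ADSF against 109.6 ± 4.44 in ADSM) did not pass. Ift140, of the same machinery, was lower in ADSF (87 ± 13.3 in ADSF against 137 ± 1.95 in ADSM).

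Imprinted genes, which are read from 1 parental copy, were mostly higher in ADSF. Of 53 genes 32 were tested, 28 were higher (41.0% of all tested genes were), 2 lower (30.1%) and 2 did not pass, with a median log2 fold change of 4.52 (4.53 with genes lacking reads in 1 group set at their bound), and 26 of the 53 had no read in ADSM. Among the 32 tested, 9 had reads in ADSF or ADSM alone, which fixed the direction they could be called in. A group of imprinted genes lies together on chromosome 12. There Meg3, a long noncoding RNA (chromosome 12, 109540996 to 109571729), had 651, 489 and 1075 in ADSF, against 0, 0 and 1.87 in ADSM. Rian, another noncoding RNA, had 721, 566 and 1296 in ADSF, against 0, 0 and 1.87 in ADSM. Dio3, which inactivates thyroid hormone, had 792, 505 and 823 in ADSF, against 0.854, 0 and 0.935 in ADSM. Dlk1 of the same region had 28.8, 32.4 and 16.8 in ADSF and no read in ADSM. Mirg averaged 17.2 in ADSF and had no read in ADSM. Elsewhere, Grb10, an adaptor that restrains insulin signalling, had 1238, 1384 and 1554 in ADSF, against 0, 2.08 and 1.87 in ADSM. The noncoding RNA H19 had 78.4, 112 and 33.7 in ADSF, against 0, 1.04 and 0 in ADSM. Gnas, the stimulatory G protein gene, was present in both, at 3188, 3092 and 3077 in ADSF, against 981, 905 and 788 in ADSM (log2 fold change of 1.81 and an adjusted p of 8.91e-08 in limma).

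Position on the chromosome gave further blocks. Runs of at least 4 neighbouring tested genes, all over 16-fold in 1 direction, occurred 16 times, 14 of them higher in ADSF and 2 lower. Over all tested genes, 12.6% were over 16-fold higher and 2.58% over 16-fold lower, so runs on the higher side have more genes to form from. Untested genes may lie between members, and the run from Ptprd to Nfib spans 75941237 to 82505308 on chromosome 4. In the HOXA cluster on chromosome 6 (52224054 to 52260880) the run took in Hoxa9, Hoxa10, Hoxa11, the antisense RNA Hoxa11as and Hoxa13. Hoxa10 had 122, 118 and 202 in ADSF, against 0, 1.04 and 0 in ADSM. Hoxa11 had 85.4, 47.3 and 86.5 in ADSF with no read in ADSM, though whether the counting told Hoxa11 from its antisense RNA is not given. Of 15 tested HOX genes 13 were higher in ADSF (41.0% of all tested genes were). Among the 15, 10 had reads in ADSF or ADSM alone, which fixed the direction they could be called in. Hoxd13, a gene of the outermost limb, had 275, 119 and 55.3 in ADSF, against 0, 1.04 and 1.87 in ADSM, with ADSF library 1 far above library 3. Hoxb7 on chromosome 11 was the 1 HOX gene called lower, with no read in ADSF, against 45.3, 34.3 and 46.7 in ADSM, and was at least 36.7-fold lower in ADSF.

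On the X chromosome a run of Armcx genes, which encode proteins of mitochondria, was higher in ADSF. Armcx2 and Armcx3 averaged 382 ± 21 in ADSF against 0.658 ± 0.572 in ADSM and 255 ± 23.7 in ADSF against no read in ADSM, and Armcx1, Armcx4 and Armcx6 belonged to the same run. Close by, Pcdh19, Tnmd, Tspan6, Srpx2 and Sytl4 formed another, in which Tnmd, a marker of tendon, had 143, 136 and 119 in ADSF, against no read in ADSM. A run on chromosome 14 held genes known from immune cells but found in ADSF. Gzme, a granzyme, had 81.4, 281 and 221 in ADSF, against no read in ADSM. Gzmc, Gzmd and Mcpt8 averaged 66.5, 45.8 and 39.2 in ADSF, none with a read in ADSM. Granzyme genes are near copies of each other and may share reads. The summed level of 7 T cell markers was 0 to 5.96 in ADSF and 8.3 to 13.1 in ADSM, and that of 6 mast cell markers 0 to 2.98 in ADSF and 0 in ADSM, with Cd3e and Cpa3 at 0 in both. On chromosome 5 the neutrophil-attracting chemokines Cxcl5, Ppbp and Cxcl1 stood in a run, and Cxcl5 had 220.3, 447 and 322 in ADSF, against no read in ADSM. The autosomal run lower in ADSF was that of the Schlafen genes on chromosome 11, where Slfn4 had 0, 0 and 1.2 in ADSF, against 296, 449 and 343 in ADSM and Slfn2 4.96, 13.7 and 22.8 in ADSF, against 273, 202 and 264 in ADSM.

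All 16 tested ephrins and Eph receptors, a contact signal between neighbouring cells, were higher in ADSF (41.0% of all tested genes were). None of the 16 reached the filter value of 10 in an ADSM library, and 7 had reads in ADSF or ADSM alone. They passed the filter only through fibroblast libraries and could hardly be called lower, so the direction of their calls was largely fixed beforehand. The median log2 fold change of the 16 was 5.45 (5.46 with genes lacking reads in 1 group set at their bound). The receptor gene Ephb2 had 179.7, 229 and 168 in ADSF and was at least 204-fold higher, and the ligand gene Efnb2 had 114, 163 and 148 and was at least 150.4-fold higher. Of 32 tested protocadherins 31 were higher (41.0% of all tested genes), but 15 of the 32 had reads in ADSF or ADSM alone, which fixed the direction they could be called in. A run of 6 gamma protocadherins lay on chromosome 18. Variants of that cluster share exons, so reads may be divided among them. All 7 tested SOX factors were higher as well (41.0% of all tested genes). The 20 SOX genes together summed to 0.935 to 4.15 in an ADSM library. None could pass the filter through ADSM, so a tested one could hardly be called lower. Sox9, a factor of cartilage, had 128, 93.4 and 99.8 in ADSF, against 0.854, 2.08 and 0.935 in ADSM.

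Ligand and receptor genes were paired to see which partners lay on different sides. Among 116 known pairs, 83 had both genes tested. The ligand was higher and the receptor lower in ADSF in 17 pairs, the ligand lower and the receptor higher in 5, both higher in 43, both lower in 4, and in 14 at least 1 gene did not pass. Over single genes, 64 of 81 tested ligands and 55 of 85 tested receptors were higher in ADSF, against 41.0% of all genes. Lower were 10 of the 81 ligands and 22 of the 85 receptors, against 30.1% of all genes, with the receptors near that share. The pair counts rest on the make-up of this list and show no direction of signalling. The pairs were collected with earlier results known, and transcript levels do not show secretion or contact.

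Growth factors of the macrophage lineage were among the 17 pairs with the ligand higher in ADSF. Csf1, the growth factor of macrophages (chromosome 3, 107741048 to 107760469), had 6567, 7569 and 7007 in ADSF, against 5.98, 14.5 and 10.3 in ADSM (log2 fold change of 9.36 with a standard error of 0.28 and an adjusted p of 3.38e-10 in limma). Its receptor gene Csf1r averaged 135 ± 41.1 in ADSF against 8307 ± 527 in ADSM. Il34, the other ligand of that receptor, had 36.7, 18.7 and 36.1 in ADSF and no read in ADSM. Tnfsf11, which encodes the osteoclast factor RANKL, had 27.8, 80.9 and 21.6 in ADSF, against no read in ADSM. Its receptor gene Tnfrsf11a had 3.97, 12.4 and 6.01 in ADSF, against 332, 246 and 319 in ADSM. Cx3cl1, a membrane-bound chemokine, had 119, 137 and 166 in ADSF, against 0, 0 and 0.935 in ADSM. Its receptor gene Cx3cr1 had 1.99, 11.2 and 1.2 in ADSF, against 1095, 1758 and 1180.5 in ADSM. In these 4 pairs every ADSF library was above every ADSM library for the ligand and below it for the receptor. Such separation was the rule, with overlap in only 61 of the 4874 genes called higher and 49 of the 3577 called lower. Adhesive pairs were Vcam1 (428 ± 50.2 in ADSF against 0.596 ± 0.518 in ADSM) and Fn1 (94994 ± 26927 in ADSF against 75.6 ± 15.5 in ADSM) with Itga4 (18.8 ± 8.22 in ADSF against 6704 ± 1167 in ADSM), and Col1a1 (34672 ± 1962 in ADSF against 30.2 ± 14.9 in ADSM) with the inhibitory collagen receptor Lair1 (5.81 ± 3.23 in ADSF against 93.7 ± 7.4 in ADSM). Il6 was low, at 4.96, 13.7 and 6.01 in ADSF, against 0, 0 and 0.935 in ADSM. Its receptor gene Il6ra had 10.9, 14.9 and 18 in ADSF, against 240, 245 and 228 in ADSM.

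The 5 pairs with the ligand lower and the receptor higher in ADSF were Tnf with both of its receptors, Pdgfb with Pdgfrb, Tgfb1 with Tgfbr1 and Sema4d with Plxnb1. Tnf, the inflammatory cytokine, had 1.99, 2.49 and 8.41 in ADSF, against 144, 249 and 158 in ADSM (log2 fold change of -5.28 with a standard error of 0.456 and an adjusted p of 1.38e-06 in limma). The receptor gene Tnfrsf1b had 328, 309 and 293 in ADSF, against 50.4, 84.1 and 57 in ADSM (log2 fold change of 2.29 with a standard error of 0.171 and an adjusted p of 3.98e-07 in limma). Pdgfb, a growth factor for mesenchymal cells, had 11.9, 11.2 and 3.61 in ADSF, against 61.5, 57.1 and 43.9 in ADSM. Pdgfrb had 1992, 1926 and 1874 in ADSF, against 8.54, 0 and 13.1 in ADSM. ADSM libraries were higher for both ligands and ADSF libraries for both receptors, without overlap, as in all but 61 of the 4874 genes called higher and 49 of the 3577 called lower. Tgfbr1 passed by a small margin of level (158 ± 30.5 in ADSF against 99.7 ± 17.7 in ADSM, log2 fold change of 0.65 and an adjusted p of 0.0056 in limma), and its call was lost with scaling by the library total.

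**Figure D4:**
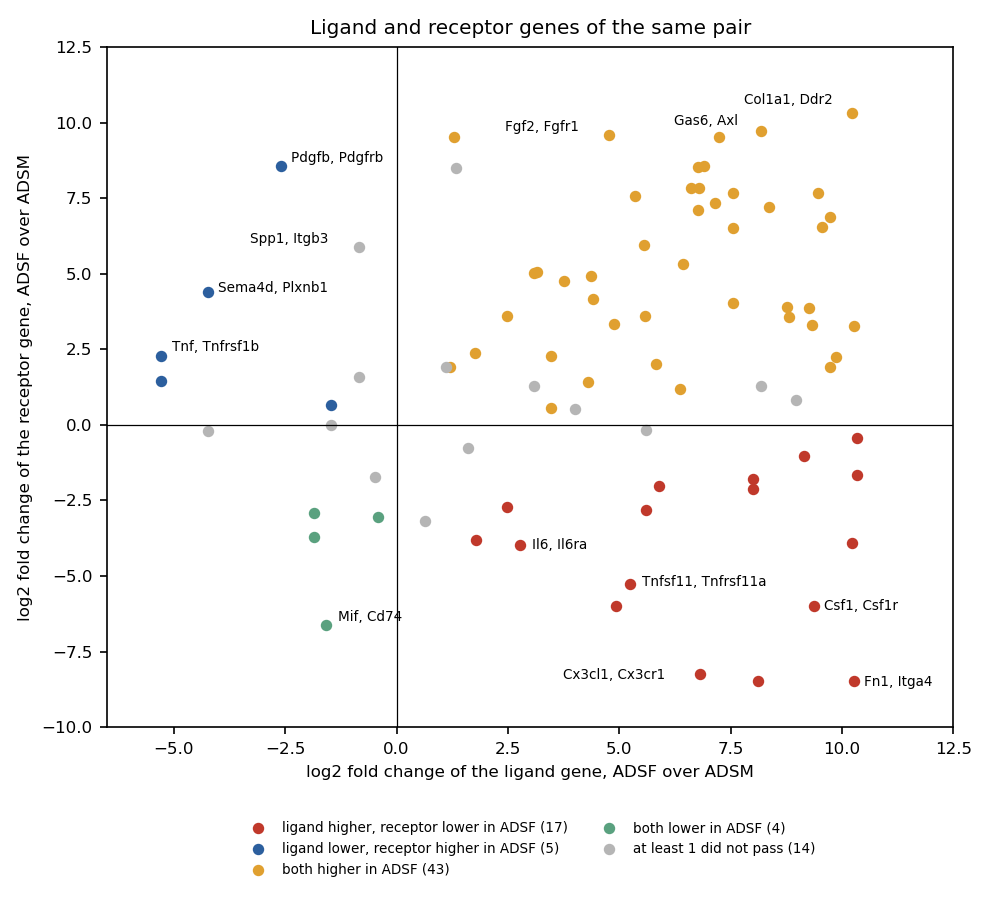
Each point is 1 of the 83 ligand and receptor pairs with both genes tested, with the log2 fold change of ADSF over ADSM for the ligand on the horizontal axis and for the receptor on the vertical axis. The lower right part holds the 17 pairs with the ligand higher and the receptor lower in ADSF, and the upper right part the 43 pairs with both higher.

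In 43 pairs both partners were higher in ADSF. Gas6, a bridge to dying cells, had 5544, 3458 and 3861 in ADSF, against 7.69, 27 and 11.2 in ADSM. Its receptor gene Axl had 2250.1, 2715 and 2309 in ADSF, against 5.13, 0 and 2.8 in ADSM. Hgf and Met averaged 112 ± 43.1 in ADSF against 0.312 ± 0.54 in ADSM and 57 ± 16 in ADSF against 0.623 ± 1.08 in ADSM, Slit2 and Robo1 471 ± 128 in ADSF against 1.57 ± 1.08 in ADSM and 202 ± 4.63 in ADSF against no read in ADSM, and Wnt5a and Ror2 188 and 90.9 in ADSF with no read for either in ADSM. The 4 pairs with both partners lower were Mif with Cd74, Cd47 with Sirpa, and Icam1 with each of Itgal and Itgb2. Sirpa, the receptor that reads the signal Cd47 not to engulf a cell, had 260.1, 327 and 242 in ADSF, against 2460.3, 2407 and 2037 in ADSM (log2 fold change of -3.06 and an adjusted p of 3.11e-08 in limma).

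Genes of engulfment were compared next. Of 39 phagocytosis and scavenger genes 23 were tested, and 14 were higher (41.0% of all tested genes were) and 7 lower in ADSF, a lower share near the 30.1% of all, with a median log2 fold change of 2.26. Lower in ADSF were the lectin Clec7a, which binds fungal glucan, at 1.99, 2.49 and 0 in ADSF, against 76, 75.8 and 87.9 in ADSM, Clec4e and Clec4d, and the scavenger receptor Msr1, at 39.7, 58.5 and 68.5 in ADSF, against 626, 968 and 800.1 in ADSM (log2 fold change of -3.83 with a standard error of 0.389 and an adjusted p of 5.25e-06 in limma). Higher were Axl and Gas6, given above, the collagen-clearing receptor Mrc2, at 1249, 1068 and 1327 in ADSF, against 2.56, 1.04 and 1.87 in ADSM, and the large endocytic receptor Lrp1, at 9763, 9567 and 10684 in ADSF, against 2918, 3040.1 and 2084 in ADSM (log2 fold change of 1.92 with a standard error of 0.25 and an adjusted p of 4.08e-05 in limma). The 3 complement genes C1qa, C1qb and C1qc, with Ephb2 a run on chromosome 4, were low in ADSF and nearly absent from ADSM. C1qa had 40.7, 44.8 and 54.1 in ADSF, against 0, 1.04 and 0 in ADSM, and C1qb 48.6, 41.1 and 95 in ADSF, against 0, 0 and 1.87 in ADSM. The macrophage receptor genes Mrc1 and Folr2 had 18.9, 6.22 and 27.6 in ADSF, against 1.71, 2.08 and 0 in ADSM and 18.9, 19.9 and 25.2 in ADSF, against 0.854, 1.04 and 0.935 in ADSM, Folr2 being named after its values were seen. The macrophage markers in ADSF, 2.19 to 4.05% of the ADSM sum, stand beside these values, and their part in them was not tested.

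Genes of iron and haem handling were higher in 12 and lower in 10 of 31 tested cases, shares near the 41.0% and 30.1% of all tested genes, so the list as a whole did not stand apart, with a median log2 fold change of 0.17 that turned to -0.15 with scaling by the library total. The iron reductases Steap1 and Steap2 were higher in ADSF, at 105 ± 22.7 in ADSF against no read in ADSM and 543 ± 56.2 in ADSF against 0.935 ± 1.62 in ADSM, as was haem oxygenase Hmox1 (867, 884 and 892 in ADSF, against 164, 139 and 135 in ADSM, log2 fold change of 2.59 and an adjusted p of 1.64e-09 in limma). The biliverdin reductase Blvra, which acts on the product of haem oxygenase, was lower, at 60.5, 62.2 and 50.5 in ADSF, against 450.2, 472 and 488 in ADSM (log2 fold change of -3.01 with a standard error of 0.128 and an adjusted p of 4.08e-09 in limma). The transferrin receptor Tfrc (227 ± 92.1 in ADSF against 855 ± 70.4 in ADSM) and the phagosome metal transporter Slc11a1 (16.9 ± 8.2 in ADSF against 119 ± 11.3 in ADSM) were lower in ADSF too.

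Genes of the BCL2 family and the caspases, which decide on cell death, were lower in 14 (30.1% of all tested genes) and higher in 6 (41.0%) of 30 tested cases, and lower in 20 with the library total, with a median log2 fold change of -0.47. The pair Bcl2a1b and Bcl2a1d, near copies whose reads may be shared, averaged 1.58 ± 1.93 in ADSF against 89.9 ± 14.7 in ADSM and 0.401 ± 0.694 in ADSF against 68.8 ± 18.6 in ADSM. Casp1, the inflammasome caspase, had 16.9, 9.96 and 18 in ADSF, against 95.7, 121 and 127 in ADSM (log2 fold change of -2.89 with a standard error of 0.263 and an adjusted p of 2.14e-06 in limma). Mcl1, a survival factor, had 364, 416 and 371 in ADSF, against 906, 941 and 866 in ADSM (log2 fold change of -1.24 and an adjusted p of 3.63e-07 in limma). Casp12, a caspase of the endoplasmic reticulum, had 164, 79.7 and 87.7 in ADSF and was at least 117-fold higher, and Bok, of the same family as BAX, averaged 76.5 in ADSF, at least 81.1-fold higher. Casp8, Apaf1 and Xiap did not pass, with log2 fold changes of -0.20 to 0.25.

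Genes of the basic machinery of the cell were shifted by small amounts to ADSM. Of 74 tested cytosolic ribosomal protein genes 66 were lower in ADSF (30.1% of all tested genes were) and 1 was higher (41.0%), with a median log2 fold change of -0.65. The 1 higher gene was Rps4y2, a copy on chromosome 6, at 101, 69.7 and 78.1 in ADSF, against no read in ADSM, named after its values were seen. Mitochondrial ribosomal proteins were lower in 62 of 76, complex I genes in 31 of 43, proteasome subunits in 28 of 39 and splicing proteins in 30 of 39, each beside the 30.1% of all tested genes. Their medians were -0.79, -0.61, -0.50 and -0.75. Mrps12, at 54.6 ± 15.7 in ADSF against 17.9 ± 3.47 in ADSM, was the mitochondrial ribosomal gene higher in ADSF. These medians stayed below 0 under each scaling, and with the library total they were -0.83 to -1.12.

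**Figure D5:**
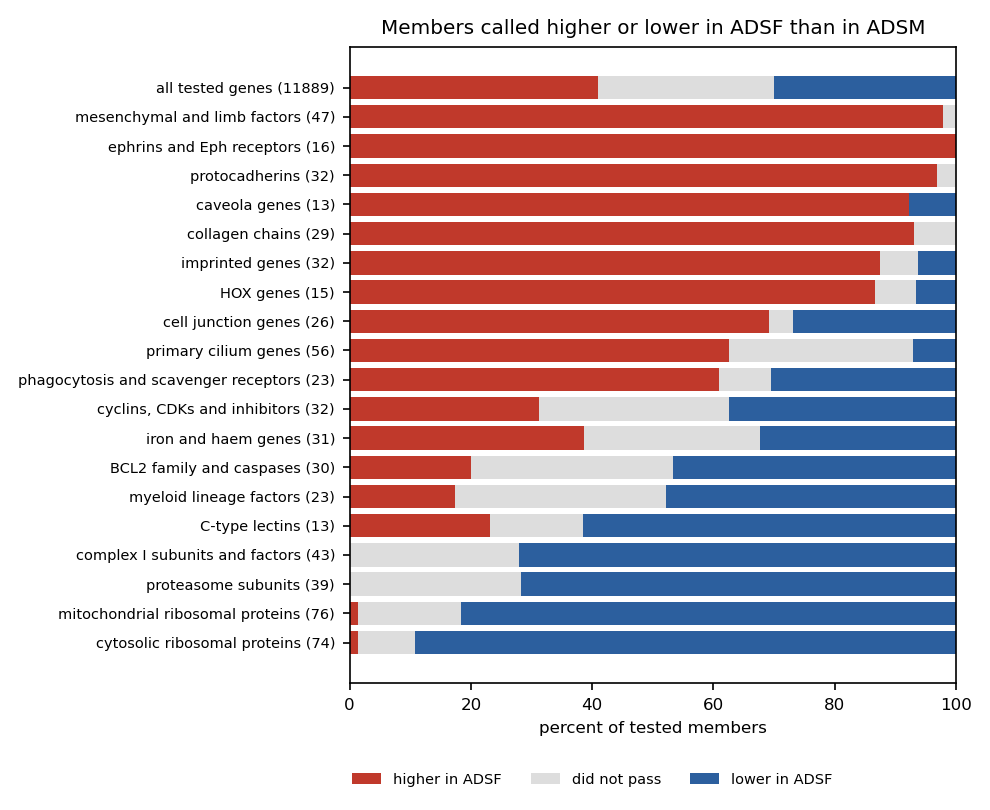
Bars give the percent of the tested members of each gene list or name-based family that were called higher in ADSF (red), did not pass (grey) or were called lower (blue), with the number tested in parentheses and all tested genes on top. The bars run from almost wholly red for mesenchymal factors and Eph genes to mostly blue for ribosomal proteins.

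Many genes were alike within narrow limits. 4261 genes (35.8% of those tested) had a 95% interval of the log2 fold change wholly between -1 and 1, of which 1503 were still called. Among the most abundant of them by FPKM were Eef1a1, Rpl41, Ftl1, Rpl23a, Rps12, Tpt1 and Rps18. Tpt1, a growth-related protein of most cells, had 4862, 5036 and 5287 in ADSF, against 5556, 4779 and 5344 in ADSM (log2 fold change -0.04, 95% interval -0.28 to 0.19), with overlapping libraries. Eef1a1, an elongation factor of translation, had 28154, 26867 and 28990.5 in ADSF, against 47262, 38603 and 44791 in ADSM (log2 fold change -0.63, 95% interval -0.97 to -0.30), and each ADSF library was below each ADSM library.

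Over the autosomes and the X chromosome, the share of tested genes higher in ADSF ran from 35.2% on chromosome 17 to 50.5% on chromosome X, which was followed by chromosome 18 at 49.1%. The median log2 fold change of 398 tested X-linked genes was 0.53, against 0.14 over all genes, and 0.20 against -0.18 with scaling by the library total. Of 5 tested genes on the Y chromosome 4 were lower in ADSF, where they had no read, and Eif2s3y had 139, 159 and 152 in ADSM. Of 8 X-linked genes known to escape X inactivation in female cells, 4 were higher and 1 lower in ADSF, and 2 and 2 with the library total. The share higher was near the 41.0% of all tested genes and the 50.5% of tested X-linked genes, so the list did not stand apart. Eif2s3x had 1106, 1268 and 1204 in ADSF, against 821, 683 and 884 in ADSM (log2 fold change of 0.59 and an adjusted p of 0.00985 in limma), Kdm5c averaged 576 ± 31.6 in ADSF against 359 ± 31 in ADSM (log2 fold change of 0.68 and an adjusted p of 6.86e-05 in limma) and Kdm6a 109.8 ± 13 in ADSF against 70.9 ± 11 in ADSM (log2 fold change of 0.63 and an adjusted p of 0.00301 in limma), while Ddx3x did not pass, at 1292 ± 96.3 in ADSF against 1142 ± 197 in ADSM, and with scaling by the library total Eif2s3x and Kdm6a did not pass either. Cell type and the sex of the cells cannot be told apart in these values.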

How the data were processed

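RNA of cultured ADSF, ADSM and NDSF was sequenced in 3 libraries each. The authors aligned reads with TopHat to mm10 and used Cufflinks, per the labels. For tool versions, the read counter and the annotation, no statement is given in the sources used here. The deposited signal of each gene is a read count divided by a TMM factor of its library. The authors deposited these TMM-normalized values in a table of 9 libraries and again for the 6 of ADSF and ADSM, and FPKM values (fragments scaled to exon length and depth) for the 6. Their own fold change, p and q columns were not used. The ADSF and ADSM columns of the 9-library table name the group, and their reads equal those of the same-numbered columns of the 6-library table, which the labels name.

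Every value was a whole read after division by its library's step (tolerance 0.001), and the 140520 values shared by both TMM tables gave equal reads. Of 23420 genes, 11889 passed the filter of 10 in any 3 of the 9 libraries. The main test was limma 3.58.1 in R 4.3.3 on log2(value + 1) with all 9 libraries, group means and a mean-variance trend, for ADSF over ADSM, with Benjamini-Hochberg adjustment at 0.05. A trial of this test on simulated data changed only a small share of genes. It cannot speak to the scaling here, where most tested genes were called. edgeR 4.0.16 and DESeq2 1.42.0 ran on the recovered reads as alternatives, beside other offsets, filters, scalings, the FPKM table and leaving out each library with the same genes tested. Genes without reads in 1 group were set against 3 reads, and those with 1 to 3 reads got an exact 95% interval that covers counting error only. The same-numbered ADSF and ADSM libraries did not deviate together (correlations of -0.000837, -0.018 and 0.00526), so they were not paired. Promoters are from RefSeq (GRCm38.p6).

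The genes compared, the lists and the pairs were chosen with earlier results of these data known. Named genes are the 12 per direction with the largest called change, without overlap and with a mean of at least 500 in the higher group, the 8 per direction most abundant by FPKM beyond 16-fold, up to 4 members per direction of each list, by smallest adjusted p, and up to 3 against its majority, the paralogs and ligand and receptor genes, the 8 most abundant similar genes, sex genes and genes of the runs. Outside this rule, and chosen after their values were seen, are Aif1, Amotl2, Apaf1, Casp8, Cd163, Cd3e, Cdh1, Cdh2, Cebpa, Cebpb, Cgn, Cpa3, Ddx3x, Dio3, Dlk1, Folr2, Gja1, Gnas, H19, H2-Ab1, Hoxb7, Hoxd13, Ift46, Ift57, Meg3, Mirg, Mrc1, Mrps12, Msr1, Nr1h3, Ocln, Pax6, Pitx1, Prrx1, Rian, Rps4y2, Sdpr, Sfpi1, Slc11a1, Slc6a13, Smo, Sox9, Tbx4, Tcf4, Tead1, Xiap, Yap1, Zeb1, Zeb2 and, among the closing observations, those said to be so there. A few genes of the lists are counted but not reported by name here.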

Additional observations from a re-analysis of the deposited data

How the results depend on the processing

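Of the 8451 genes called, 7706 to 8450 kept their call and direction in the other fits that tested them all, as did 7548 of 8435 with the library total, and the FPKM table alone turned the direction of 1. Adding 5 before the log left 761 genes over 16-fold higher in ADSF and 183 over 16-fold lower, since it shrinks the folds of low genes by construction, and a filter of at least 50 left 3 pairs with the ligand lower and the receptor higher in ADSF, with fewer genes tested. Without any 1 of the 9 libraries, 4587 to 5053 genes were higher and 3146 to 3836 lower, 1472 to 1506 over 16-fold higher and 297 to 314 over 16-fold lower, 33 to 35 paralog pairs divided and 17 to 18 and 5 to 7 ligand and receptor pairs divided in either direction. Among the named genes no direction turned under any alternative, while 21 genes lost their call under at least 1. The planned replicate block was not run on the 9-library table, whose ADSF and ADSM column names give only the group. Their reads equal those of the same-numbered libraries of the 6-library table, so the block could have been run there. In the 6-library TMM table, added after seeing the data, the fit with the block called 4681 genes higher and 3347 lower, against 4767 and 3472 without it, and Cd47 (limma adjusted p of 0.0540 with the block) and Eef1a1 (0.0670) lost their calls. The sex-linked transcripts, the longer culture of ADSM and the cell type cannot be told apart at any setting.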

Other observations

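Solute carriers, which move nutrients and ions across membranes, followed the shares of all genes. Of 201 tested genes named Slc, 83 were higher and 73 lower in ADSF, near the 41.0% and 30.1% of all tested genes. With the library total 65 were higher and 90 lower. They had a median log2 fold change of 0.13 that was -0.02 with upper-quartile scaling and -0.20 with the library total. The genes named here were chosen after their values were seen. The glutamate transporter gene Slc1a3 had 326, 447 and 470 in ADSF, against 0, 0 and 0.935 in ADSM. The prostaglandin carrier Slco2a1 had 264, 288 and 353 in ADSF, against no read in ADSM. Slc6a12, a carrier of betaine and GABA, had 6.95, 12.4 and 10.8 in ADSF, against 2967, 1518 and 2307 in ADSM (log2 fold change of -7.66 with a standard error of 0.399 and an adjusted p of 2.15e-08 in limma). Slco4a1, an organic anion carrier, had 4.96, 4.98 and 2.4 in ADSF, against 1705, 1751 and 1703 in ADSM (log2 fold change of -8.44 with a standard error of 0.412 and an adjusted p of 1.26e-08 in limma). Semaphorins, guidance signals, were higher in 12 (41.0% of all tested genes) and lower in 5 of 18 tested cases, the lower share being near the 30.1% of all. The secreted Sema3c and Sema3f averaged 341 ± 176 in ADSF against 0.285 ± 0.493 in ADSM and 96.5 ± 31.6 in ADSF against no read in ADSM. The membrane-bound Sema4d averaged 25.6 ± 19.9 in ADSF against 427 ± 71.1 in ADSM. Of their receptors, Plxna1 averaged 1496 ± 137 in ADSF against 148 ± 12.9 in ADSM, Plxnc1 67.8 ± 22.9 in ADSF against 271 ± 46.1 in ADSM and Plxnd1 136 ± 31.1 in ADSF against 443 ± 69.7 in ADSM.

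Cyclins, their kinases and inhibitors numbered 10 higher (41.0% of all tested genes) and 12 lower (30.1%) in ADSF of 32 tested, with a median log2 fold change of 0.02 that was -0.13 with upper-quartile scaling and -0.31 with the library total. The D cyclins were divided. Ccnd2 had 1751, 1644 and 2479.8 in ADSF, against 8.54, 11.4 and 6.54 in ADSM (log2 fold change of 7.64 with a standard error of 0.295 and an adjusted p of 2.02e-09 in limma). Ccnd1 had 593, 281 and 739 in ADSF, against 1153, 1178 and 1270.2 in ADSM (log2 fold change of -1.27 with a standard error of 0.275 and an adjusted p of 0.00168 in limma). The kinase inhibitor gene Cdkn2b had 163, 111 and 162 in ADSF, against 0, 0 and 0.935 in ADSM. Its neighbour Cdkn2a had 47.6, 47.3 and 79.3 in ADSF, against no read in ADSM. E2f2, a factor of the S phase, averaged 7.45 ± 3.11 in ADSF against 91.1 ± 15.1 in ADSM. Purine signalling genes were higher in 10 (41.0% of all tested genes) and lower in 2 (30.1%) of 14 tested cases, but in 8 and 4 with the library total. The 2 lower were the ATP receptor gene P2rx7 (35.8 ± 5.93 in ADSF against 143 ± 17.3 in ADSM) and the UDP receptor gene P2ry6 (12.3 ± 2.25 in ADSF against 129 ± 7.26 in ADSM). P2rx4, another ATP receptor gene, averaged 139 ± 3.13 in ADSF against 44.8 ± 9.75 in ADSM. Interleukin receptor genes were higher in 12 (41.0% of all tested genes) and lower in 5 of 18 tested cases, the lower share being near the 30.1% of all. Il1r1, the receptor for IL-1, had 505, 554 and 464 in ADSF, against 0, 0 and 1.87 in ADSM. Il4ra, a chain of the IL-4 receptor, averaged 839 ± 291 in ADSF against 22 ± 3.72 in ADSM. Lower in ADSF were Il2rg, the common gamma chain (7.05 ± 3.00 in ADSF against 179 ± 24.7 in ADSM), and Il10ra, of the IL-10 receptor (3.52 ± 1.5 in ADSF against 129.8 ± 38.7 in ADSM).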
